A study of Nicotiana tabacum with 9 samples.

Results

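Enzymes that remove superoxide and hydrogen peroxide were followed in tobacco (Nicotiana tabacum) leaf RNA. They were taken by their protein domain descriptions, which had to name a superoxide dismutase, an ascorbate peroxidase, a catalase, a glutathione peroxidase, a glutathione reductase, a peroxiredoxin or an alkyl hydroperoxide reductase. Of 69500 genes in the deposited table, 74 matched. They were 8 genes with a copper/zinc superoxide dismutase entry (Cu/Zn SOD), 10 manganese/iron superoxide dismutases (Mn/Fe SOD), 18 ascorbate peroxidases (APX), 11 genes with a catalase entry, 15 glutathione peroxidases (GPX) and 12 peroxiredoxins (PRX). Of the Cu/Zn SOD genes, 2 are of a copper chaperone type, and 0 genes were described as glutathione reductase. RNA sequencing was done on 9 libraries, 3 each of the plant materials labelled KY, Y and K326. K326 is a flue-cured cultivar, the labels give KY and Y only as genotype names, and they state no treatment, plant age or leaf position. The series title concerns leaf yellowing.

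Superoxide forms where electrons leak to oxygen, above all in chloroplasts and mitochondria. SODs convert it to hydrogen peroxide. APX then reduces the peroxide with ascorbate, catalase splits it in peroxisomes, and GPX and PRX reduce it and lipid peroxides with thiols. The Mn and Fe types of SOD share 1 fold, and the description here does not separate them. In plants the Fe type is known from chloroplasts and the Mn type from mitochondria.

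Library totals of the deposited signal ran from 551496 to 603165. The file does not name its unit, and read depth is unknown. Gene length is not known either, so ratios and ranks of genes within a class describe the deposited signal and are not levels per length. Light-harvesting and RuBisCO small-chain genes, which mark leaf, were above 0 for 71 to 77 of 90 genes in each library, and their summed signal was 108128.5 to 129503.8 in KY, 89092 to 107014.7 in Y and 93629.3 to 118799.7 in K326. A list of root genes (Casparian strip proteins) matched no description. Over all tested genes, KY replicate 1 exceeded both other KY libraries in 8173 of 16348 genes (50%). Its log2 values over these genes correlated more closely with K326 replicate 3 (Pearson r = 0.954) than with KY replicate 2 (0.899) or KY replicate 3 (0.94). This limits every comparison with KY, and several results on KY are also given without KY replicate 1. In RNA of whole leaf tissue, fewer cells of a type and less RNA per cell cannot be told apart.

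A gene was tested where its mean over the 9 libraries was at least 1, which left 16348 genes, 44 of them members. The other 30 members had means below 1, and 11 of those were listed at 0 in all 9 libraries. Differences are given as log2 of (signal + 1), which understates change at low signal, and a gene was called at a Benjamini-Hochberg adjusted p below 0.05 in limma over all tested genes. Of the 44 tested members, 2 rose and 0 fell in Y against K326, where 1.99% of all tested genes were called and 0.777% were called higher. In KY against K326, 0 rose and 1 fell, where 0.789% of all tested genes were called, 0.232% higher and 0.557% lower. In KY against Y, 0 rose and 1 fell, where 1.3% were called and 0.814% were called lower. With 1 or 2 genes per comparison, these shares are no result about the enzymes as a group. The 3 genes behind the calls are 2 Mn/Fe SOD genes and 1 APX gene.

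The Mn/Fe SOD gene Nitab4.5_0002279g0090 was present in Y leaves and at or near 0 in KY and K326 leaves. It was listed at 0 in all 3 KY libraries, had 7.03, 5.94 and 6.72 in the Y libraries, and 0.45, 0 and 0 in the K326 libraries. All Y libraries lay above all K326 libraries, as in 7.41% of all tested genes, and the KY and K326 libraries overlapped. It rose in Y against K326 (log2 difference 2.74, SE 0.20, limma adjusted p = 9.54e-05). It fell in KY against Y (limma adjusted p = 0.000133), with no fold given because KY was listed at 0. KY against K326 did not pass (limma adjusted p = 0.758). Y enters both calls, so they are not independent of each other. The mean over the 9 libraries was 2.24, so the gene reached the tests only through its Y libraries. The log2 difference of Y from K326 was 1.17 with a pseudocount of 5 and 5.23 with a pseudocount of 0.1, and the call held with both.

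The Mn/Fe SOD gene Nitab4.5_0000375g0200 was high in Y, intermediate in KY and low in K326. Its signal was 3.84, 6.44 and 10.1 in KY, 13.7, 14.3 and 19.4 in Y, and 1.00, 0 and 3.22 in K326. The materials did not overlap, although the lowest KY library was close to the highest K326 library. Over all tested genes, Y lay above K326 without overlap in 7.41%, KY above K326 in 3.21% and KY below Y in 11.2%. The gene rose in Y against K326 (log2 difference 3.03, SE 0.49, limma adjusted p = 0.0152). Without K326 replicate 1 or any 1 of the Y libraries this call was lost (log2 differences 2.88 to 3.12, limma adjusted p from 0.056 to 0.0664), as it was with a pseudocount of 0.1 (log2 difference 4.46, limma adjusted p = 0.102). With a pseudocount of 5 it held (log2 difference 1.72, limma adjusted p = 0.00583). The differences of KY from K326 (log2 difference 1.86, SE 0.49, limma adjusted p = 0.194) and of KY from Y (-1.17, SE 0.49, limma adjusted p = 0.354) did not pass. Without K326 replicate 3 and KY replicate 1 together, a setting chosen after seeing the data, KY against K326 passed (log2 difference 2.69, limma adjusted p = 0.0305).

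**Figure D1:**
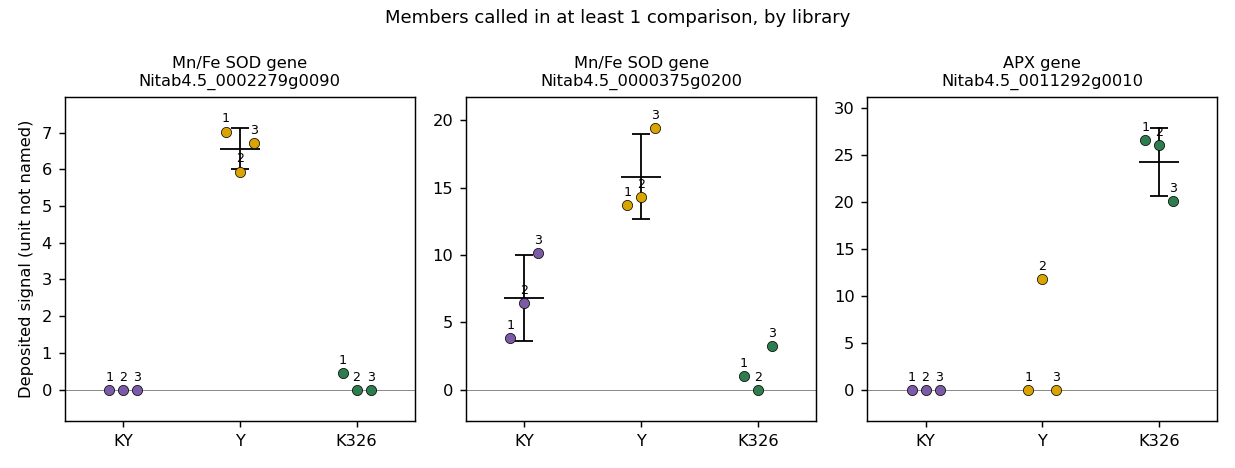
Deposited signal (vertical axis, unit not named) of the 3 members called in at least 1 comparison, in each library of KY, Y and K326 (horizontal axis). Points are libraries numbered by replicate, and bars are mean ± SD (n = 3), drawn only where no library is at 0. The first SOD gene is at 5.94 to 7.03 in Y and at most 0.45 elsewhere, the second is highest in Y, and the APX gene is listed at 0 in KY, at 11.8 in Y replicate 2 alone and at 20.1 to 26.6 in K326.

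Both identifiers carry a scaffold number, and the genes that share it were compared by description. The scaffold part of Nitab4.5_0000375g0200 holds 37 genes in the table and that of Nitab4.5_0002279g0090 holds 13. Across them, 3 gene pairs had identical sets of domain entries: a NAF-domain protein kinase, a Macro domain gene and a chalcone isomerase. The Macro domain genes lie within 2 identifier steps of their SOD gene on both. Nitab4.5_0000375g0180 had 8.48, 10.4 and 7.26 in KY, 10.04, 10.07 and 10.66 in Y, and 11.6, 10.5 and 10.4 in K326. Nitab4.5_0002279g0070 had 3.00, 1.66 and 2.08 in KY, 2.28, 3.21 and 4.27 in Y, and 5.06, 3.15 and 3.56 in K326. Neither Macro domain gene was called in Y against K326 (log2 difference -0.07, limma adjusted p = 0.901, and -0.22, limma adjusted p = 0.755). The 2 SOD genes themselves did not hold identical entries. Nitab4.5_0000375g0200 has the Mn/Fe SOD binding site entry, and Nitab4.5_0002279g0090 does not. No sequences were compared, so whether the 2 are copies of each other was not tested. Tobacco is an allotetraploid, and the sources used here do not say how the authors divided reads between near-identical copies. The split between any such genes is uncertain.

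The 4 other tested Mn/Fe SOD genes were not called. Nitab4.5_0000071g0350 had 247.9, 346.0 and 430.6 in KY, 340.5, 474.7 and 563.7 in Y, and 265.8, 283.6 and 429.8 in K326, and the 3 materials overlapped. Nitab4.5_0005479g0070 had 223.3, 311.9 and 345.0 in KY, 280.4, 342.2 and 391.7 in Y, and 226.1, 310.7 and 324.4 in K326. The first was at 0.913 to 1.44 times the second over the libraries, and their scaffold parts hold 6 gene pairs with identical entries, SOD genes among them. The second gene enters these pairs with the first and also with Nitab4.5_0000071g0190, an SOD gene listed at 0 throughout. Another of the pairs shares only a general WD40/YVTN repeat entry. Nitab4.5_0004599g0060 averaged 68.8 ± 14.9 in KY, 84.5 ± 18.9 in Y and 74.5 ± 8.4 in K326 (SD, n = 3). Nitab4.5_0001743g0010, named after its values were seen, had 62.0, 47.4 and 47.9 in KY, 63.7, 80.6 and 68.2 in Y, and 61.6, 49.2 and 65.7 in K326. Its KY libraries lay below all Y libraries, as in 11.2% of all tested genes, without passing (log2 difference -0.43, limma adjusted p = 0.347). Of the 4 untested genes of the class, 3 were listed at 0 throughout. The last of them, Nitab4.5_0007307g0030, named after its values were seen, had a mean of 0.69. Its signal was 0.80, 0 and 0.72 in KY, 0.44, 0.81 and 0.26 in Y, and 0.98, 1.21 and 0.99 in K326. Its Y libraries lay below all K326 libraries, the other way from the tested genes. The 6 tested genes of the class all stood above 0 in Y against K326 and all below 0 in KY against Y. This held under the deposited values and under the 3 other scalings. Among them, Nitab4.5_0002279g0090 reached the tests only through its Y libraries, which fixed its direction in both comparisons. Both comparisons also share the Y libraries, so the 2 counts are not independent. Over all tested genes, 40% stood above 0 in Y against K326 and 43.8% in KY against Y. The median was 0.38 against -0.08 over all genes in Y against K326, and -0.43 against -0.05 in KY against Y. Apart from the 2 genes above, 0 were called, so the direction of the other 4 is a description. In the summed signal of all 10 genes, the libraries overlapped: 623.8 to 894.4 in KY, 781.4 to 1121.7 in Y and 631.1 to 906.6 in K326.

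Cu/Zn SOD genes, the copper-dependent type, had no called member. Of 5 tested, 0 were called in any comparison, and these 5 include both genes of the copper chaperone type described below. Log2 differences ran from -0.33 to 0.31 over the 3 comparisons, with a smallest limma adjusted p of 0.567. Nitab4.5_0004871g0010 had 31.95, 17.28 and 23.91 in KY, 17.7, 18.4 and 20.7 in Y, and 24.4, 14.1 and 28.2 in K326. Nitab4.5_0002884g0060 averaged 15.6 ± 2.45 in KY, 18.6 ± 2.14 in Y and 20.1 ± 4.38 in K326 (SD, n = 3). The Y libraries lay inside the range of the K326 libraries for the first gene, and the materials overlapped for the second.

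The 3 untested genes had means from 0.0667 to 0.48. Among the 8 genes with Cu/Zn SOD entries, 2 also hold a heavy metal-associated domain, as does the copper chaperone that loads copper into this enzyme. Nitab4.5_0012494g0030, of this type, averaged 20.6 ± 0.86 in KY, 20.8 ± 2.71 in Y and 20.3 ± 1.24 in K326 (SD, n = 3), its highest library at 1.3 times its lowest. The other, Nitab4.5_0005167g0010, had 11.4, 13.0 and 13.6 in KY, 11.8, 15.3 and 11.0 in Y, and 15.8, 13.8 and 15.8 in K326. Its KY libraries lay below all K326 libraries, as in 12.4% of all tested genes, but the difference was small and did not pass (log2 difference -0.24, SE 0.16, limma adjusted p = 0.62).

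The APX gene Nitab4.5_0011292g0010 was listed at 0 in all 3 KY libraries, had 0, 11.8 and 0 in the Y libraries, and 26.6, 26.1 and 20.1 in the K326 libraries. K326 lay above every other library. Over all tested genes, KY lay below K326 without overlap in 12.4% and Y below K326 in 14.7%. The APX gene fell in KY against K326 (limma adjusted p = 0.0483), with no fold given because KY was listed at 0. The Y libraries share the model and differ widely in this gene. The adjusted p was much smaller when Y replicate 2 was left out (limma adjusted p = 1.54e-05) or when only KY and K326 were fitted (limma adjusted p = 0.000189). Leaving out any 1 K326 library, KY replicate 2 or 3, or Y replicate 1 or 3 ended the call (limma adjusted p between 0.0515 and 0.196). So did median-of-ratios scaling (limma adjusted p = 0.0558), quantile normalization (limma adjusted p = 0.0548) and a pseudocount of 0.1 (limma adjusted p = 0.0824). Y against K326 did not pass (log2 difference -3.43, SE 0.84, limma adjusted p = 0.105), but did without Y replicate 2 (limma adjusted p = 2.26e-05) and with a pseudocount of 5 (log2 difference -1.96, limma adjusted p = 0.0467). The scaffold part of its identifier holds no other gene in the table.

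The other 12 tested APX genes were not called. None of the 18 holds the entry of the secreted class III peroxidases, and 13 of 18 hold the peroxidase active site entry. Nitab4.5_0012050g0010 had 162.1, 193.4 and 156.1 in KY, 148.6, 158.4 and 156.2 in Y, and 155.1, 136.6 and 164.4 in K326. Nitab4.5_0018666g0010 had 124.8, 160.6 and 128.4 in KY, 118.8, 122.1 and 119.2 in Y, and 118.8, 113.6 and 128.3 in K326. The first was 1.2 to 1.31 times the second in every library, and both hold the same entries. For the second, all KY libraries lay above all Y libraries, as in 5.39% of all tested genes, by a small amount that did not pass (log2 difference 0.19, SE 0.14, limma adjusted p = 0.635).

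Nitab4.5_0000022g0310, the third highest APX gene, had 73.0, 60.1 and 55.8 in KY, 69.3, 91.6 and 110.35 in Y, and 100.5, 70.1 and 90.7 in K326. KY replicates 2 and 3 lay below all Y and K326 libraries, and KY replicate 1 overlapped both. The differences of KY from K326 (log2 difference -0.46, SE 0.21, limma adjusted p = 0.468) and of KY from Y (-0.50, SE 0.21, limma adjusted p = 0.366) did not pass. As a class, 9 of 13 tested APX genes stood below 0 in KY against K326 and 4 (30.8%) above. This is near the share of all tested genes, of which 30.6% stood above 0. The APX median was -0.33, against -0.14 over all tested genes. Without KY replicate 1 the median was -0.50, against -0.19 over all tested genes, again with 9 of 13 below 0 and with 2 called lower. With all libraries, 8 of 13 stood below 0 under median-of-ratios scaling with a median of -0.15. Under quantile normalization 7 of 13 did, with a median of -0.18. Of the 9 other APX genes tested but not described above, 8 had means between 1.44 and 57.7 and log2 differences between -0.76 and 0.34 in all 3 comparisons. The 5 untested genes had means of at most 0.0733, and 2 of them were listed at 0 throughout. The ninth, Nitab4.5_0003187g0070, named after its values were seen, had 12.5, 2.39 and 2.63 in KY, 5.77, 4.66 and 4.36 in Y, and 4.80, 7.01 and 6.62 in K326. KY replicate 1 was the highest of all 9 libraries and the other 2 KY libraries were the lowest. Without KY replicate 1 the gene fell in KY against K326 (log2 difference -1.01, SE 0.20, limma adjusted p = 0.0387), where 4.01% of all tested genes were then called, and with all libraries the limma adjusted p was 0.789.

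Catalase genes showed no called member, and KY libraries disagreed among themselves. Of 11 genes, 6 hold the full set of catalase entries with the haem-binding site, 2 are aminotransferases with a catalase signature, 2 are AMP-dependent synthetases with a catalase domain and 1 has the domain alone. The 6 tested genes are 4 full catalases and both aminotransferases, and the 5 untested ones had means of at most 0.677, with 2 listed at 0 throughout. Nitab4.5_0000702g0130 had 948.2, 1553.4 and 1431.3 in KY, 1133.8, 1007.8 and 1458.0 in Y, and 1156.8, 1177.4 and 1132.1 in K326. Nitab4.5_0006960g0010 had 948.7, 1390.2 and 1366.5 in KY, 1174.4, 1089.0 and 1514.4 in Y, and 1130.2, 1131.2 and 1069.7 in K326. The first was 0.925 to 1.12 times the second, and 3 gene pairs with identical entries, the catalases included, link their scaffold parts. In both, the K326 libraries lay close together, inside the range of the KY libraries.

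Nitab4.5_0000407g0130, the third highest, had 336.2, 193.9 and 418.8 in KY, 152.8, 199.6 and 350.5 in Y, and 396.5, 369.1 and 294.5 in K326. It did not follow the other 2: KY replicate 2, the highest library for the first catalase, was the second lowest here. The other 3 tested genes, named after their values were seen, each had KY replicate 2 as the highest library. The fourth full catalase, Nitab4.5_0000588g0030, had 7.02, 22.8 and 16.5 in KY, 6.23, 6.20 and 12.5 in Y, and 10.85, 7.65 and 8 in K326. The aminotransferase Nitab4.5_0007126g0030 had 12.5, 31.2 and 24.8 in KY, 17.9, 15.1 and 26.5 in Y, and 16.8, 11.3 and 10.2 in K326. The aminotransferase Nitab4.5_0000052g0220 had 4.13, 8.95 and 7.38 in KY, 4.91, 3.59 and 7.57 in Y, and 5.72, 3.04 and 3.22 in K326. KY against K326 gave log2 differences of 0.62, 0.73 and 0.63 in these 3 genes, none of which passed (limma adjusted p = 0.596, 0.475 and 0.504). Of the 6 tested genes with a catalase entry, 5 stood above 0 in KY against K326, but only 3 of 6 under quantile normalization. Over all tested genes, 30.6% stood above 0. The median was 0.38, against -0.14 over all tested genes. The full catalases among them had 0.15, 0.13 and -0.22 in the 3 highest genes and 0.62 in the fourth. The class median therefore leans on the aminotransferases, which are not catalases by their other entries. KY replicate 1 lay below both other KY libraries in 5 of 6 (27% of all tested genes), and without it the median was 0.64 with 0 called. Without it 0 of 6 were also called in KY against Y, where all 6 stood above 0.

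**Figure D2:**
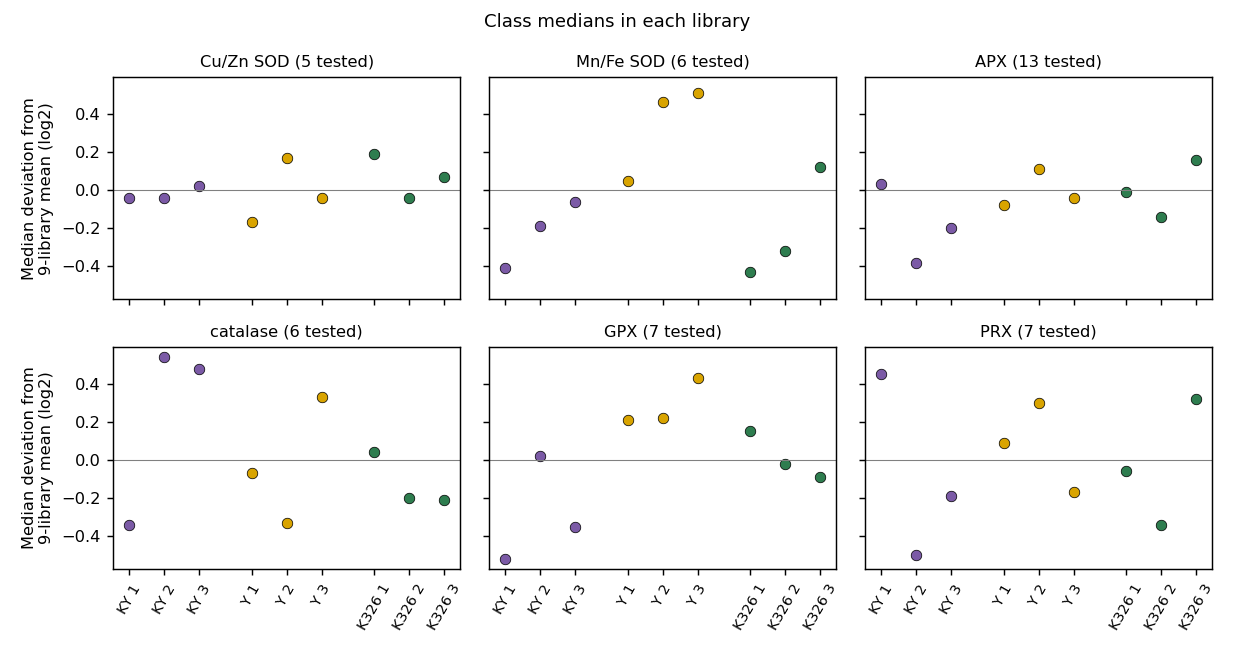
Median over the tested members of each enzyme class of the deviation of log2(signal + 1) from the mean of the 9 libraries (vertical axis), in each library of KY, Y and K326 (horizontal axis). Each point is 1 library. PRX runs from -0.5 in KY 2 to 0.45 in KY 1 and catalase from -0.34 in KY 1 to 0.54 in KY 2. The catalase panel includes 2 aminotransferases with a catalase signature.

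Of the GPX genes, all 7 tested had log2 differences below 0 in KY against Y, and 0 were called. This held under the deposited values and the 3 other scalings and without KY replicate 1. The median was -0.31, against -0.05 over all tested genes, of which 43.8% stood above 0. Overlapping related lists leaned the same way. Genes with a thioredoxin entry had 167 of 237 below 0, glutaredoxins 36 of 53 and glutathione S-transferases 39 of 57. Their medians were -0.18, -0.2 and -0.22. Methionine sulfoxide reductases leaned the other way, with 8 of 13 above 0. Of the 7 tested GPX genes, 3 were below an unadjusted p of 0.05, as were 13.2% of all tested genes. The smallest limma adjusted p was 0.328. Nitab4.5_0000759g0020 had 41.7, 71.6 and 64.1 in KY, 90.5, 84.8 and 98.2 in Y, and 78.6, 94.3 and 52.3 in K326. All its KY libraries lay below all Y libraries, as in 11.2% of all tested genes, and the difference did not pass (log2 difference -0.65, SE 0.26, limma adjusted p = 0.328). Nitab4.5_0000580g0260 had 25.5, 46.5 and 23.3 in KY, 48.2, 50.5 and 63.6 in Y, and 60.5, 25.6 and 37.3 in K326. Here too the KY and Y libraries did not overlap (log2 difference -0.81, SE 0.34, limma adjusted p = 0.36), while K326 overlapped both.

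Nitab4.5_0002368g0050 averaged 52.4 ± 21.8 in KY, 61.8 ± 9.01 in Y and 46.8 ± 8.83 in K326 (SD, n = 3). KY replicate 2, at 75.3, was its highest library. Its Y libraries, from 53.8 to 71.5, lay just above its K326 libraries, from 36.8 to 53.5, as in 7.41% of all tested genes. This difference did not pass (log2 difference 0.40, SE 0.29, limma adjusted p = 0.619). The 4 other tested genes had means between 1.32 and 29.2 and log2 differences from -0.60 to -0.18 in KY against Y. Of the 8 untested genes, 2 were listed at 0 throughout and the highest had a mean of 0.964. The summed signal of the 15 GPX genes was 143.3, 246.8 and 173.7 in KY, 255.6, 252.0 and 294.6 in Y, and 256.9, 222.9 and 181.6 in K326. KY lay below Y in these sums without overlap, and K326 overlapped both.

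PRX genes varied widely within the materials. Of 12 genes, 6 hold the C-terminal peroxiredoxin domain and 6 the AhpC/TSA domain alone, the fold shared by bacterial alkyl hydroperoxide reductase. Of 7 tested, 0 were called, and medians were 0.12 in Y against K326, -0.12 in KY against K326 and -0.19 in KY against Y. Without KY replicate 1, 6 of 7 stood below 0 in KY against K326 (median -0.26, against -0.19 over all tested genes) and in KY against Y (median -0.43, against -0.12), with 0 called in either. With all libraries, the sign of the median in KY against K326 turned under median-of-ratios scaling (0.03) and quantile normalization (0.04). Nitab4.5_0001287g0150 had 561.8, 289.9 and 402.8 in KY, 399.5, 425.0 and 376.3 in Y, and 329.7, 308.4 and 487.9 in K326. Nitab4.5_0007540g0030 had 328.2, 135.8 and 182.7 in KY, 240.1, 279.5 and 152.8 in Y, and 204.9, 185.3 and 295.8 in K326. Nitab4.5_0010740g0010 averaged 181.8 ± 76.8 in KY, 198.1 ± 33.0 in Y and 204.1 ± 38.1 in K326 (SD, n = 3). In all 3 genes KY replicate 1 and K326 replicate 3 were the highest 2 libraries.

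The 4 other tested PRX genes had means between 3.47 and 119.6. Of the 5 untested ones, 2 were listed at 0 throughout and the highest had a mean of 0.324. KY replicate 1 and K326 replicate 3 were the highest 2 libraries in 4 of 7 tested PRX genes, against 10.9% of all tested genes. KY replicate 1 lay above both other KY libraries in 7 of 7, against 50% of all tested genes. The mean deviation of the 7 tested PRX genes from the 9-library mean was 0.39, -0.44 and -0.13 log2 units in KY. It was 0.04, 0.28 and -0.17 in Y, and -0.09, -0.28 and 0.4 in K326. Genes of dividing cells, taken as core histones and cyclins, were high in KY replicate 1 and K326 replicate 3. They were also high in K326 replicate 1, where the PRX genes were not. The mean deviation of their 97 tested genes from the 9-library mean was 0.61, -0.83 and -0.47 log2 units in KY, -0.39, -0.12 and -0.66 in Y, and 0.59, 0.24 and 1.04 in K326. Their summed signal ranged from 1110.9 to 3129.6 in KY, from 1218.4 to 1868 in Y and from 2286.5 to 4352.7 in K326, with 150 to 168 of 222 genes above 0. Among genes with pollen allergen entries, the mean deviation of 39 tested genes was 0.48, -0.54 and -0.21 in KY, -0.15, -0.17 and -0.24 in Y, and 0.22, 0.24 and 0.38 in K326, with 63 to 76 of 165 genes above 0. Their summed signal ranged from 501.3 to 1253.6 in KY, from 647 to 742.7 in Y and from 964.5 to 1164.6 in K326. In Y against K326, 90 of the 97 dividing-cell genes stood below 0 (median -1.01, 5 called lower and 1 higher), and in KY against K326 again 90 of 97 did (median -0.84, 0 called). Of 68 tested leaf genes, 60 stood above 0 in KY against K326 (median 0.36, 3 called higher) and 52 in Y against K326 (median 0.24, 1 called higher). Among all tested genes, 40% stood above 0 in Y against K326 (median -0.08) and 30.6% in KY against K326 (median -0.14). In Y against K326, 1.21% of them were called lower and 0.777% higher. In KY against K326, 0.557% were called lower and 0.232% higher. The part of these lists in the PRX values and in the called genes was not tested.

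**Figure D3:**
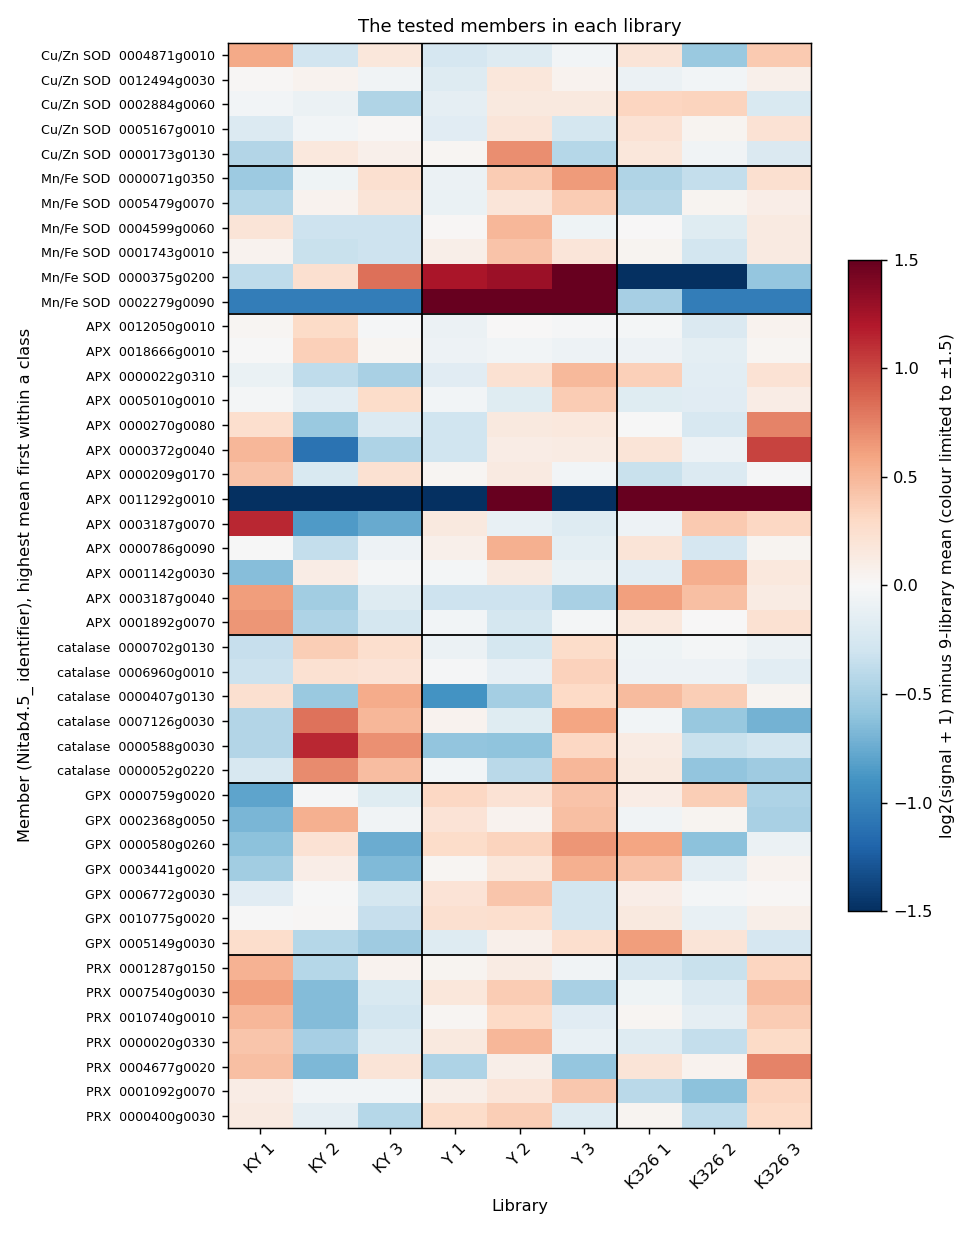
Deviation of log2(signal + 1) from the 9-library mean (colour, limited to ±1.5) for the 44 tested members (rows, by class, highest mean first) in the libraries of KY, Y and K326 (columns). The strongest colours fall on the 3 called genes, and all 7 PRX rows are redder at KY 1 than at KY 2 and KY 3.

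Over all 44 tested members, the median log2 difference was 0.07 in Y against K326, against -0.08 over all tested genes. It was -0.15 against -0.14 in KY against K326 and -0.18 against -0.05 in KY against Y. Median-of-ratios scaling moved the median of all genes in KY against K326 from -0.14 to 0, and there the member median was 0.01. Libraries of the materials compared did not overlap in 6 of 44 members in Y against K326 (22.2% of all tested genes), in 3 in KY against K326 (15.6%) and in 6 in KY against Y (16.6%). The median SE of a member's log2 difference was 0.26, and a member that was not called is not shown to be level.

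**Figure D4:**
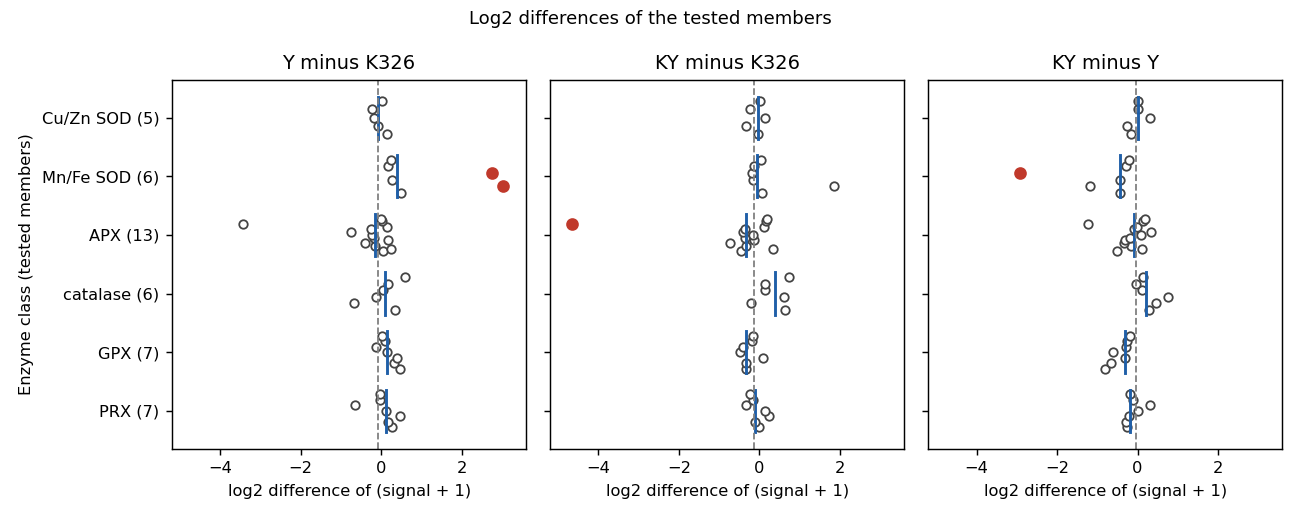
Log2 difference of (signal + 1) (horizontal axis) of each tested member by enzyme class (vertical axis, number tested in brackets) in 3 panels, which show Y less K326, KY less K326 and KY less Y. Filled points are called (limma adjusted p below 0.05), solid lines are class medians and dashed lines the median of all 16348 tested genes. Beyond 1.5 in either direction lie only 2 Mn/Fe SOD genes and 1 APX gene, where values against a material listed at 0 depend on the pseudocount.

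Genes that work beside these enzymes were counted in the same fit, without the members themselves. Sulfiredoxins, which repair over-oxidised peroxiredoxins, had 2 of 2 genes tested and 0 called, as did glutathione synthesis with 2 of 4 tested and ascorbate synthesis with 1 of 2 tested. Thioredoxin reductases (7 tested), class III peroxidases (23 tested), 2-hydroxy acid oxidases of the glycolate oxidase type (2 tested), alternative oxidases (2 tested), genes with a ferritin-like entry (12 tested) and metallothioneins (3 tested) had 0 called in all 3 comparisons. None of 18 NADPH oxidase genes reached a mean of 1, and monodehydroascorbate and dehydroascorbate reductases matched no description.

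A methionine sulfoxide reductase gene of the MsrB type (Nitab4.5_0006892g0030), whose enzyme repairs oxidised methionine, was lowest in Y. It had 18.7, 22.7 and 22.7 in KY, 1.12, 1.86 and 3.84 in Y, and 10.2, 13.7 and 14.2 in K326, with no overlap between materials. It rose in KY against Y (log2 difference 2.85, SE 0.29, limma adjusted p = 0.00141) and fell in Y against K326 (-2.14, SE 0.29, limma adjusted p = 0.0049), the only calls among 13 tested genes of this list.

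A glutathione S-transferase gene (Nitab4.5_0002470g0030), of a family that joins glutathione to other molecules, had 0.61, 0.70 and 0 in KY, 0.66, 1.18 and 0 in Y, and 11.9, 13.0 and 11.2 in K326. It fell in Y against K326 (log2 difference -3.08, SE 0.31, limma adjusted p = 0.000763) and in KY against K326 (-3.22, SE 0.31, limma adjusted p = 0.000942), which share the K326 libraries. With at most 1.18 in any KY or Y library, the gene reached the tests only through its K326 libraries. Its log2 differences against values near 0 depend on the pseudocount. It was the only called gene of 57 tested in that family. A glutaredoxin gene (Nitab4.5_0000824g0010), whose protein reduces disulfides with glutathione, had 42.9, 57.0 and 46.9 in KY, 74.1, 93.6 and 88.3 in Y, and 88.1, 99.4 and 90.1 in K326. It fell in KY against K326 (log2 difference -0.91, SE 0.16, limma adjusted p = 0.0418), the only call of 53 tested glutaredoxins. These last 2 genes were also the only called genes among 237 tested genes with a thioredoxin or thioredoxin-fold entry, a list that holds both families.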

How the data were processed

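The deposited file gives 1 signal value per gene and library, with no unit named, and the authors' mean per material, which was not used. The submitters' processing notes name HISAT2, StringTie and RSEM without a role; the build is not given in the sources used here. Genes are called by the table's own domain descriptions, as 0 of their identifiers occur in RefSeq's list for assembly ASM71507v2 (79372 genes), and no sequences are shown. The log2(signal + 1) values of genes whose mean reached 1 were fitted in limma 3.58.1 under R 4.3.3, with 1 mean per material, a mean-variance trend and all 9 libraries. The fit was tested on simulated data.

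The labels number the replicates without saying that they are separate plants, so p-values reflect only library-to-library spread, possibly technical. The members and lists were chosen with earlier results of these data known. Members are described singly when called, when listed at 0 throughout 1 material with a mean of at least 5 in another, when among the 3 highest of their class, or when among the 2 largest differences without overlap per class and comparison with a mean of at least 5. In related lists, up to 3 called genes are named. Alternatives changed the pseudocount, filter, scaling, trend, samples fitted and replicate block, and left out each library.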

Additional observations from a re-analysis of the deposited data

How the results depend on the processing

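The rise of Nitab4.5_0002279g0090 in Y against K326, and its fall in KY against Y, passed in all 19 alternatives in which the gene was tested; it was not tested with a mean of at least 5. Leaving out 1 library at a time gave 1 to 2 called members in Y against K326, 0 to 2 in KY against K326 and 1 to 1 in KY against Y, and member medians of 0 to 0.11, -0.2 to -0.02 and -0.24 to -0.11. It gave 181 to 450, 76 to 655 and 114 to 302 called genes, against 325, 129 and 212. KY against K326 had 655 without KY replicate 1, 76 to 80 without any 1 K326 library and 80 without KY replicate 3. Y against K326 had 181 to 201 without any 1 K326 library or Y replicate 1 or 2, and KY against Y had 127 without KY replicate 3 and 114 without Y replicate 1. With a mean of at least 5, 156, 60 and 127 genes and 1, 0 and 0 members were called. In KY against K326, 0 members were called under median-of-ratios scaling, quantile normalization, no filter, a pseudocount of 0.1 or the replicate block. In Y against K326, 1 was called with a pseudocount of 0.1 and 3 with a pseudocount of 5. Member medians were 0.16 (Y against K326) and 0.01 (KY against K326) under median-of-ratios scaling and -0.01 (KY against K326) under quantile normalization. Fitting KY and Y alone gave 127 genes. Calls in KY against K326 were 38 higher and 91 lower as deposited. Median-of-ratios scaling gave 49 higher and 73 lower, quantile normalization 51 higher and 73 lower.

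Correlations of the deviations of same-numbered libraries ran from -0.166 to 0.177, and those of differently numbered libraries from -0.306 to 0.322. Deviations sum to 0 within a material, so these values cannot exclude a pairing by replicate number. With the replicate block 211, 85 and 134 genes were called. With 1 library left out, the log2 difference of Nitab4.5_0002279g0090 in KY against K326 ran from -0.27 to 0 (0 without K326 replicate 1), and that of Nitab4.5_0011292g0010 in KY against Y from -1.84 to 0 (0 without Y replicate 2), where both sides are listed at 0. The cause of these changes was not tested. Unknown read depth limits every value near 0.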

Other observations

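The pattern of the APX gene Nitab4.5_0011292g0010 recurred in the table, as seen after its values were known. With at least 5 in all 3 K326 libraries and 0 in all 3 KY libraries there were 8 genes. Of these, 4 were listed at 0 in all Y libraries and 4, the APX gene included, were above 0 in Y replicate 2 alone. The Mn/Fe SOD gene Nitab4.5_0002279g0090 was the only gene of 69500 with at least 5 in all Y libraries and 0 in all KY libraries. This pattern was taken from its own values, and the count depends on the cut at 5. Below that cut, the PRX gene Nitab4.5_0000299g0220 had 0.96, 0.44 and 0.85 in Y and 0 in all KY libraries. These counts are values without a test.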
